A study of Mus musculus with 8 samples.

Results

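Serotonin reaches the ventral pallidum (VP) from the raphe nuclei and acts through a large receptor family. Most members are G protein-coupled receptors. Those of the Gi/o class (Htr1a, Htr1b, Htr1d, Htr1f and Htr5a here) lower cyclic AMP and tend to quiet a neuron or its terminals, those of the Gq/11 class (Htr2a and Htr2c) activate phospholipase C and tend to excite, and those of the Gs class (Htr4 and Htr7) raise cyclic AMP. These 9 genes were chosen by name, and each had 1 row in a deposited table of 14353 genes.

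The data came from untreated mice homozygous for VGluT2-Cre and heterozygous for the RiboTag allele of Rpl22, which puts an epitope tag on ribosomes wherever Cre has acted. TRAP libraries hold the mRNA pulled down with tagged ribosomes and INPUT libraries, by their labels, the input to that pulldown, and every animal of both groups carried both alleles. Tissue of 38 mice, 15 male and 23 female, was combined into 4 pools, VP1.6 with mice of 9 to 12 weeks and 3 more (VP2.2, VP2.6, VP2.11) with mice of 10 to 16 weeks, each of 7 to 11 mice and giving 1 library of each fraction (n = 4 per fraction). Cre under the VGluT2 gene marks every cell in the punch that has ever expressed it, and pooling hides the spread between mice, so p-values measure the spread between pools. The second fraction is Input by the labels but unbound RNA in the methods' account of sequencing. In bulk libraries such as these, fewer cells of a type and less RNA per cell cannot be told apart.

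The values are log2 CPM, that is, read counts scaled to the size of the library, with TMM factors computed by the authors. Slc17a6, which encodes VGluT2, was 143 ± 13.6 CPM in TRAP against 25.9 ± 10.3 CPM in INPUT (SD, n = 4 each), and the vesicular GABA transporter gene Slc32a1 was lower in TRAP by 1.26 on the log2 scale. The other GABAergic markers, Gad1 and Gad2, were called in neither fit (log2 fold changes 0.30 and -0.05) and were at 613 ± 145 and 528 ± 142 CPM in TRAP (SD, n = 4 each). Among 7 striatal medium spiny neuron markers 5 were lower in TRAP in both fits described below, and among 5 microglial markers 5. Of 5 astrocyte markers 4 were lower in both fits. Of 5 oligodendrocyte markers 4 were lower in both fits and 1 was higher without the block only. Of 3 cholinergic markers 1 was lower in both fits and 1 was higher without the block only. Of 3 endothelial markers with a row 1 was higher in both fits. The cortical glutamatergic markers Slc17a7 (53.9 ± 5.15 CPM in TRAP against 20.2 ± 5.52 in INPUT) and Tbr1 (81.2 ± 24.9 against 9.37 ± 3.84, SD, n = 4 each) were higher in both fits, and whether that mRNA came from VP neurons or from other tagged cells was not tested. Depth could be read from whole-read steps in 2 pools only, at 12.6 M (TRAP) and 38.1 M reads (INPUT) for VP2.2 and 12.7 M and 25.3 M for VP2.6, and is unknown for VP1.6 and VP2.11. Htr1f, at 2.01 CPM in TRAP of VP2.6, rested on 24 reads.

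TRAP was compared with INPUT in limma over the 14249 genes with more than 1 CPM in at least 3 libraries, which all 9 receptor genes passed. The fit was made with the fraction alone and again with the pool as a block, and a gene was called at a Benjamini-Hochberg adjusted p under 0.05 over all genes tested. Htr2c was higher in TRAP in both fits, Htr1b was lower in both, and Htr1d was lower without the block but not with it. Over all genes, calls higher in TRAP made up 23.2% without the block and 15.4% with it, and calls lower in TRAP 24.8% and 16.8%. Among the receptor genes 1 of 9 was called higher in either fit, and 2 of 9 lower in the first fit and 1 of 9 in the blocked one, shares that are near or below those of the whole table. The median log2 fold change was -0.13 over the 9 genes and -0.05 over all genes tested. Htr2c was the 1 receptor gene with every TRAP library above every INPUT library, a pattern of 23.3% of all genes, and Htr1b and Htr1d were the 2 with every TRAP library below, a pattern of 24.4%. The other 6 overlapped between fractions.

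**Figure D1:**
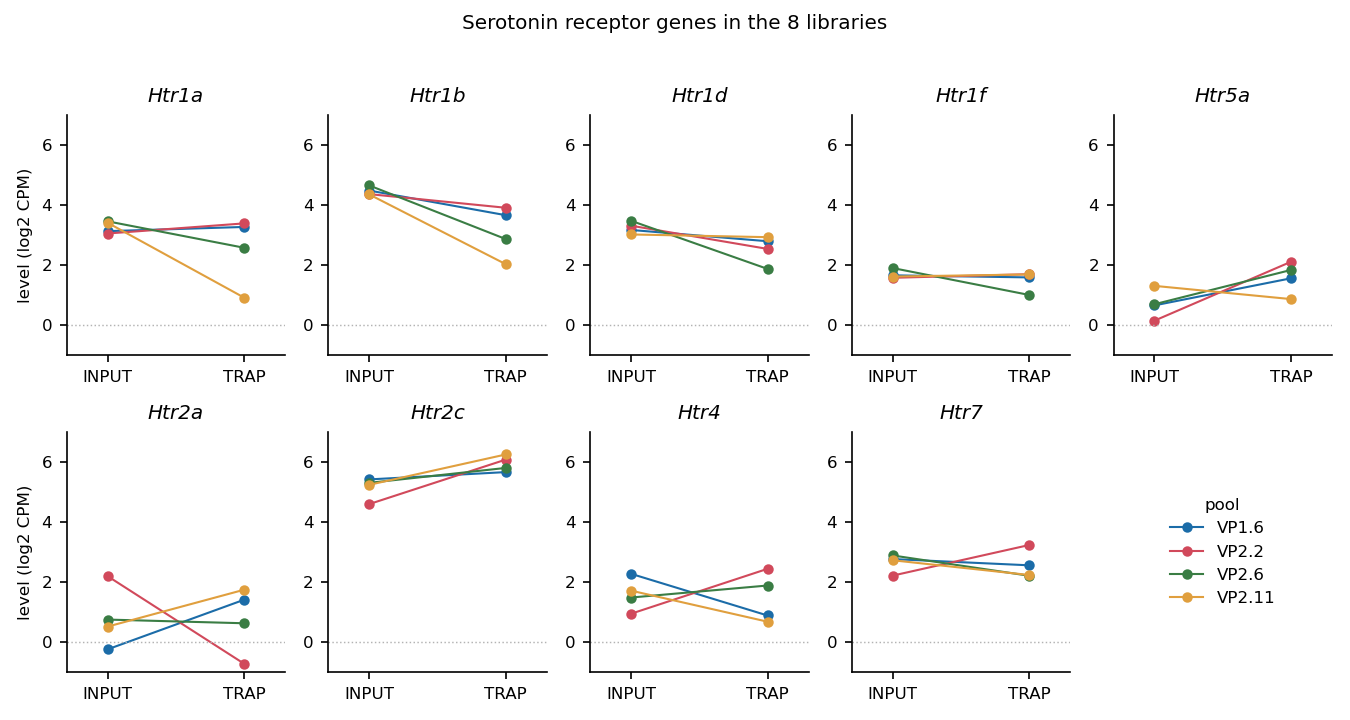
Level of each serotonin receptor gene (y axis, log2 CPM) in INPUT and TRAP, with 1 line for each pool and a dotted line at 1 CPM. The 4 lines of Htr2c rise, the 4 lines of Htr1b and of Htr1d fall, and lines of the other 6 genes cross or overlap.

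Htr2c (ENSMUSG00000041380), the Gq/11-coupled receptor best known for its high level in the choroid plexus and in forebrain neurons that restrain feeding and dopamine release, lies on chromosome X of GRCm38 from 146962513 to 147197277 on the plus strand. Its TRAP levels were 50.7 CPM in VP1.6, 67.6 in VP2.2, 55.8 in VP2.6 and 76.1 in VP2.11. The INPUT levels were 42.8, 24.3, 39.6 and 37.8 CPM in the same order. The lowest TRAP library was above the highest INPUT library (p = 0.029 in an exact permutation test, two-sided, where no smaller p is possible with 4 libraries a group). That test treated the libraries as independent and ignored their pairing by pool, so its p-value does not stand for paired data. The mean level was 1.75-fold higher in TRAP, a log2 fold change of 0.81 (standard error 0.20, limma adjusted p = 0.0080). In the blocked fit the standard error was 0.25 and the adjusted p 0.021, and the 95% interval ran from 0.28 to 1.33 on the log2 scale.

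The size of the Htr2c difference varied among pools, from 0.24 (VP1.6) and 0.50 (VP2.6) to 1.01 (VP2.11) and 1.48 (VP2.2) on the log2 scale. In the blocked fit the call was lost without VP2.2 (0.58, adjusted p = 0.060) and without VP2.11 (0.74, adjusted p = 0.076). Htr2c has the longest summed exons of the 9 genes, 9328 bp, and over all genes tested the median log2 fold change went from -0.63 in the 3563 genes with the shortest exons to 0.35 in the 3562 with the longest. With that trend taken out and the block kept, the log2 difference of Htr2c was 0.33 and its adjusted p 0.23. In VP2.2 the values came from 1207 TRAP and 1309 INPUT reads and in VP2.6 from 585 and 824, so counting error was small beside the spread of the pools.

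The choroid plexus is a possible other source of Htr2c mRNA in tissue next to a ventricle. Of 8 choroid plexus markers 6 had a row, and none was at 0 in all libraries. Their summed level was 34.8 to 69.4 CPM in TRAP and 234 to 346 CPM in INPUT. The most abundant was the transthyretin gene Ttr, at 38.9 ± 15.6 CPM in TRAP against 260 ± 46.3 CPM in INPUT (SD, n = 4 each). Choroid plexus markers were thus lower in TRAP, 4 of 6 without the block and 2 of 6 with it, while Htr2c was higher. What part of the INPUT level of Htr2c came from the choroid plexus was not tested.

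Htr2c mRNA is a known substrate of the ADAR enzymes, which convert adenosines to inosines within the codons for the second intracellular loop and so weaken coupling to the G protein. The stretch is shown because counts per gene sum edited and unedited transcripts alike, so a TRAP level of Htr2c does not say which receptor form is made. It lies on the plus strand at chrX:147169671-147169715 (GRCm38, GENCODE release M21), in a coding exon that is exon 5 of one annotated transcript and exon 6 of another, and capitals mark the run of 5 codons within which the edited adenosines lie.
Htr2c, 5′ to 3′: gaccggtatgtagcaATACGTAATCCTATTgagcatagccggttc
Adar, which encodes the editing enzyme ADAR1, was 188 ± 6.796 CPM in TRAP against 113 ± 11.3 CPM in INPUT (SD, n = 4 each), higher in both fits (log2 fold change 0.75, adjusted p = 7.6e-04, and 0.013 with the block). Adarb1, which encodes ADAR2, was 87.7 ± 12.6 and 56.9 ± 14.2 CPM (SD, n = 4 each) and was called without the block only (log2 fold change 0.65, adjusted p = 0.021 and 0.057 with the block). With the exon length trend taken out in the blocked fit, neither was called, at 0.33 for Adar (adjusted p = 0.16) and 0.097 for Adarb1 (adjusted p = 0.74). Adarb2, which encodes a homologue without known editing activity, was at 16.6 and 17.7 CPM and was called in neither fit.

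Htr2a (ENSMUSG00000034997), the other Gq/11-coupled gene and the main target of classical psychedelics, lies on chromosome 14 of GRCm38 from 74640840 to 74709494 on the plus strand. TRAP libraries held 2.67 CPM in VP1.6, 0.611 in VP2.2, 1.55 in VP2.6 and 3.36 in VP2.11. INPUT libraries held 0.851, 4.602, 1.69 and 1.44 CPM in the same order. It was the least settled of the 9 genes, since VP2.2 had the lowest TRAP and the highest INPUT level and its difference of -2.91 on the log2 scale stood against 1.65 in VP1.6 and 1.23 in VP2.11. The mean log2 difference was -0.04 (adjusted p = 0.96, and 0.97 with the block), with a blocked 95% interval from -1.54 to 1.46, so no difference was detectable and the interval still holds large differences in either direction. Without VP2.2 the log2 difference was 0.92. At these levels the gene rested on 21 TRAP and 46 INPUT reads in VP2.6. In VP2.2 the read number was not settled, and candidates from a looser search ran from 4 to 13 TRAP and 102 to 307 INPUT reads.

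Htr1b (ENSMUSG00000049511) encodes a Gi/o-coupled receptor that sits mostly on axon terminals, where it curbs release of serotonin and of other transmitters, and is known to be abundant in striatal medium spiny neurons. It lies on chromosome 9 of GRCm38 from 81628291 to 81633828 on the minus strand. In TRAP the levels were 12.6 CPM in VP1.6, 15.01 in VP2.2, 7.29 in VP2.6 and 4.08 in VP2.11. In INPUT the levels were 22.3, 20.6, 25.1 and 20.4 CPM in the same order. INPUT libraries were close to each other and all above the highest TRAP library (p = 0.029 in the same unpaired exact permutation test), whereas TRAP levels spread widely. The mean level was 2.54-fold lower in TRAP, a log2 fold change of -1.34 (standard error 0.35, limma adjusted p = 0.0097). In the blocked fit the standard error was 0.32 and the adjusted p 0.0060, and the 95% interval ran from -2.03 to -0.65.

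The within-pool log2 differences of Htr1b were smallest in VP2.2 (-0.45) and VP1.6 (-0.82) and larger in VP2.6 (-1.78) and VP2.11 (-2.32). Without VP2.6 the adjusted p was 0.069 in the fit without the block and 0.028 in the blocked fit, at a log2 difference of -1.198. The reads behind it were 205 TRAP and 851 INPUT in VP2.2 and 97 and 666 in VP2.6. The 7 striatal medium spiny neuron markers were all above 0 in both fractions and summed to 384 to 628 CPM in TRAP and 780 to 1079 CPM in INPUT. Their sum was lower in TRAP by 1.49 in VP1.6, 0.43 in VP2.2, 1.15 in VP2.6 and 0.71 in VP2.11 on the log2 scale, so the pool with the smallest difference was the same for the markers and for Htr1b, but the pool with the largest was not. The part of striatal mRNA in the Htr1b result was not tested.

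Exons of Htr1b share 852 bp, 18.04% of their length, with the antisense gene D430036J16Rik. That gene was itself lower in TRAP (log2 fold change -2.76, adjusted p = 1.5e-04, and 1.6e-04 with the block). The authors counted unambiguous reads, and whether strand was used is not given in the sources used here. Counted without strand, reads in the shared stretch would be assigned to neither gene.

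Htr1d (ENSMUSG00000070687), a close relative of Htr1b that likewise acts on axon terminals, lies on chromosome 4 of GRCm38 from 136423524 to 136444398 on the plus strand. The 4 TRAP levels were 6.94 CPM in VP1.6, 5.81 in VP2.2, 3.67 in VP2.6 and 7.62 in VP2.11. The 4 INPUT levels were 9.00, 9.93, 11.1 and 8.11 CPM in the same order. The fractions did not overlap, but the highest TRAP and the lowest INPUT library, both of VP2.11, were close. The log2 fold change was -0.71 with a standard error of 0.25 (adjusted p = 0.036) without the block and 0.34 (adjusted p = 0.12) with it. With library weights added to the block it was called (-0.90, adjusted p = 0.026). The difference of -1.60 in VP2.6 was the widest, and without that pool it was -0.41 (adjusted p = 0.20, and 0.52 with the block).

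Htr1a (ENSMUSG00000021721) encodes the somatodendritic receptor that opens inwardly rectifying potassium channels, and is also the autoreceptor of serotonergic neurons. It lies on chromosome 13 of GRCm38 from 105443639 to 105448122 on the plus strand. TRAP levels came to 9.64 CPM in VP1.6, 10.5 in VP2.2, 5.97 in VP2.6 and 1.89 in VP2.11. INPUT levels came to 8.75, 8.29, 10.98 and 10.6 CPM in the same order. Pools VP1.6 and VP2.2 had slightly more Htr1a in TRAP than in INPUT, with differences of 0.14 and 0.34, while VP2.6 (-0.88) and above all VP2.11 (-2.49) had less. The mean log2 difference was -0.72 (adjusted p = 0.22, and 0.20 with the block), with a blocked 95% interval from -1.62 to 0.18. Without VP2.11 it was -0.13.

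The same order of pools was seen in Htr1b, for which VP2.6 and VP2.11 also had the lower TRAP levels. In Htr1d this was so for VP2.6 but not for VP2.11, whose TRAP level was the highest of the 4.

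**Figure D2:**
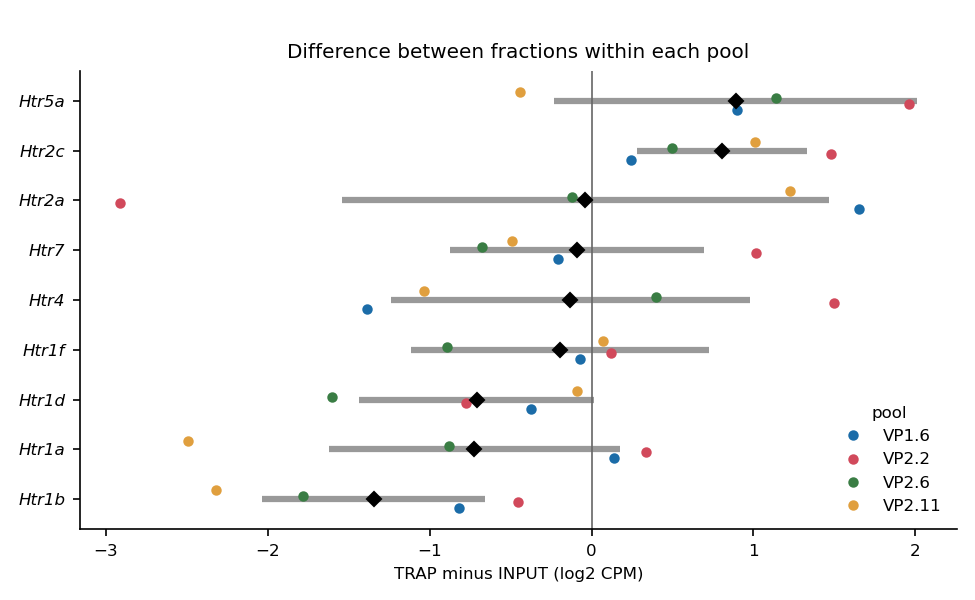
TRAP minus INPUT difference (x axis, log2 CPM) of each serotonin receptor gene, with 1 point for each pool, a diamond at the mean and a bar for the 95% interval of the blocked fit. The bars of Htr2c and Htr1b lie to one side of 0, and the points of Htr2a span from -2.91 to 1.65.

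Htr5a (ENSMUSG00000039106), a Gi/o-coupled receptor whose function in this region is little known, lies on chromosome 5 of GRCm38 from 27842149 to 27855088 on the plus strand. Levels in TRAP were 2.95 CPM in VP1.6, 4.32 in VP2.2, 3.58 in VP2.6 and 1.83 in VP2.11. Levels in INPUT were 1.58, 1.11, 1.62 and 2.48 CPM in the same order. The TRAP level was above the INPUT level in 3 of 4 pools, by 0.90, 1.96 and 1.14, and below it in VP2.11 (-0.44). The log2 fold change of 0.89 was the largest positive value of the 9 genes but was called in neither fit (adjusted p = 0.063, and 0.21 with the block). Without VP2.11 it was 1.33 (adjusted p = 0.0068, and 0.067 with the block). In VP2.6 it rested on 40 TRAP and 36 INPUT reads.

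Htr1f (ENSMUSG00000050783), the Gi/o-coupled receptor targeted by lasmiditan, lies on chromosome 16 of GRCm38 from 64924729 to 65105854 on the minus strand. The TRAP libraries gave 3.01 CPM in VP1.6, 3.25 in VP2.2, 2.01 in VP2.6 and 3.23 in VP2.11. The INPUT libraries gave 3.16, 2.99, 3.74 and 3.07 CPM in the same order. Apart from VP2.6, levels were alike in both fractions to within 0.12 on the log2 scale. The log2 fold change was -0.19 (adjusted p = 0.55, and 0.76 with the block), with a blocked 95% interval from -1.11 to 0.73.

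Of the Gs-coupled genes, Htr7 (ENSMUSG00000024798), a receptor known in thalamus and hypothalamus, lies on chromosome 19 of GRCm38 from 35958734 to 36057507 on the minus strand. In TRAP it was at 5.91 CPM in VP1.6, 9.44 in VP2.2, 4.64 in VP2.6 and 4.72 in VP2.11. In INPUT it was at 6.82, 4.66, 7.41 and 6.64 CPM in the same order. VP2.2 had more in TRAP (1.02) and the other 3 pools less (-0.21 to -0.68). The log2 fold change was -0.09 (adjusted p = 0.80, and 0.88 with the block), with a blocked 95% interval from -0.87 to 0.69.

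Htr4 (ENSMUSG00000026322), a Gs-coupled receptor abundant in striatum and other basal ganglia, lies on chromosome 18 of GRCm38 from 62324204 to 62496577 on the plus strand. TRAP values were 1.86 CPM in VP1.6, 5.45 in VP2.2, 3.71 in VP2.6 and 1.61 in VP2.11. INPUT values were 4.86, 1.93, 2.81 and 3.29 CPM in the same order. Pools were split, with differences of 1.49 in VP2.2 and 0.40 in VP2.6 against -1.39 in VP1.6 and -1.03 in VP2.11. The log2 fold change was -0.13 (adjusted p = 0.82, and 0.87 with the block), with a blocked 95% interval from -1.24 to 0.98, so neither Gs-coupled gene differed detectably.

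To order the receptors by level, CPM was divided by the summed length of each gene's exons (GENCODE release M21). In TRAP the order was Htr2c (6.71 ± 1.23 CPM per kb), Htr1b (2.07 ± 1.05), Htr1d (1.88 ± 0.541), Htr7 (1.82 ± 0.662), Htr1a (1.56 ± 0.875), Htr1f (1.11 ± 0.227), Htr4 (0.643 ± 0.365), Htr5a (0.590 ± 0.197) and Htr2a (0.366 ± 0.217), each as CPM per kb ± SD with n = 4. Htr2c stood above Htr1b, the next gene by mean level, in each TRAP library, by 1.02 to 3.24 on the log2 scale. Their ranges did not overlap. The ranges of all other neighbours overlapped, so the order below Htr2c is not settled by 4 libraries. Among all genes tested Htr2c was at percentile 63.9 of TRAP levels per kb and the other 8 lay between percentiles 6.90 and 34.3.

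In INPUT the order began with Htr1b (4.68 ± 0.461 CPM per kb), Htr2c (3.87 ± 0.876), Htr1d (2.98 ± 0.402), Htr1a (2.16 ± 0.299), Htr7 (1.88 ± 0.352) and Htr1f (1.26 ± 0.132), and ended with Htr4 (0.657 ± 0.250), Htr2a (0.383 ± 0.299) and Htr5a (0.316 ± 0.106), each as CPM per kb ± SD with n = 4. Among neighbours in this order only the ranges of Htr1d and Htr1a, and of Htr1f and Htr4, did not overlap. Those of all other neighbours did, among them Htr1b and Htr2c. Annotated exons of Htr2c sum to 9328 bp but its longest transcript has 4883 bp. Divided by longest transcripts instead, Htr2c was first in both fractions, at 12.8 ± 2.35 CPM per kb in TRAP and 7.39 ± 1.67 in INPUT (SD, n = 4 each).

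**Figure D3:**
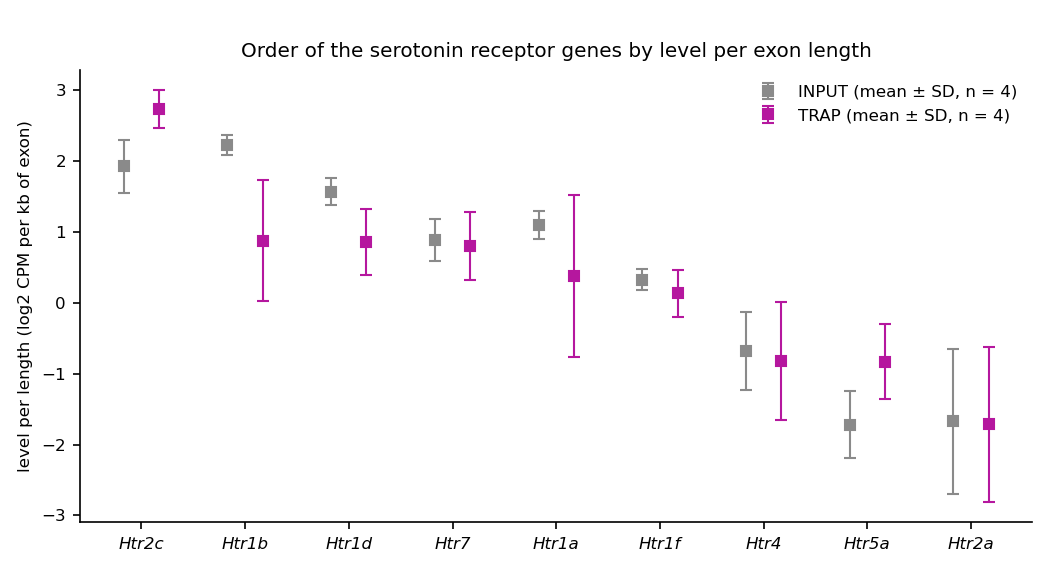
Level per summed exon length (y axis, log2 CPM per kb of exon) of the serotonin receptor genes in INPUT and TRAP, as squares for the mean and bars for the SD over 4 libraries, ordered by the TRAP mean. Htr2c is apart from the rest in TRAP but shares its INPUT range with Htr1b.

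Summed per kb over the 9 genes, Gi/o-coupled receptors made up 52.1% of the TRAP total in VP1.6, 45.5% in VP2.2, 39.5% in VP2.6 and 33.4% in VP2.11, and 58.7% to 67.3% of the INPUT total. Gq/11-coupled receptors made up 35.3% to 55.7% in TRAP and 21.6% to 25.3% in INPUT. These shares did not overlap between fractions. The mean level of Htr1b went from 4.68 CPM per kb in INPUT to 2.07 in TRAP and that of Htr2c from 3.87 to 6.71, so genes of both classes moved the shares. Htr2c alone was 40.7 ± 8.75% of the TRAP total and 21.1 ± 3.48% of the INPUT total (SD, n = 4 each). With longest transcript lengths Htr2c was 55.4 ± 8.67% and 33.0 ± 4.68% (SD, n = 4 each). The Gi/o share was then 31.75 ± 7.41% in TRAP and 53.0 ± 4.59% in INPUT (SD, n = 4 each). The Gq/11 share was 57.1 ± 9.16% and 34.9 ± 3.08% (SD, n = 4 each), so the shares depend on the length used. The exon length trend described for Htr2c was not taken out of them. The Gs-coupled share was 14.4 ± 3.45% in TRAP and 13.9 ± 2.07% in INPUT (SD, n = 4 each), within the spread of the libraries.

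Of 5 further serotonin receptor genes 2 had a row, and Htr2b, Htr3b and Htr6 are not analysed here. Htr5b, a relative of Htr5a, was at 2.24, 1.26, 2.597 and 4.89 CPM in TRAP and at 0.235, 2.29, 0.404 and 0.767 CPM in INPUT, with pools in the order used above. Like Htr5a it was above INPUT in 3 of 4 pools, though the exception was VP2.2 and not VP2.11, and the fit without the block called it (1.94 on the log2 scale, adjusted p = 0.038 and 0.060 with the block), and called in the blocked fit with the exon length trend taken out (2.32, adjusted p = 0.022). Htr3a, which encodes a subunit of the serotonin-gated ion channel and marks a class of cortical interneurons, was 1.48 ± 0.347 CPM in TRAP against 2.53 ± 0.0938 CPM in INPUT (SD, n = 4 each). It was below INPUT in 4 of 4 pools and was called without the block only (log2 fold change -0.80, adjusted p = 0.043 and 0.24 with the block).

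Of 10 genes of serotonin synthesis, transport and breakdown 8 had a row, with 3 higher and 1 lower in the fit without the block. The blocked fit had 2 and 1, and the median log2 fold change was 0.23. Among all genes tested 23.2% were called higher and 24.8% lower without the block, and 15.4% and 16.8% with it. Maob, which encodes a monoamine oxidase, was 67.4 ± 10.8 CPM in TRAP against 35.5 ± 6.05 CPM in INPUT (SD, n = 4 each) (log2 fold change 0.93, adjusted p = 0.0015, and 0.0070 with the block). Maoa, the other monoamine oxidase gene, was at 66.5 and 47.5 CPM and called without the block only (log2 fold change 0.50, adjusted p = 0.025 and 0.11). Ddc, which encodes the decarboxylase shared by serotonin and dopamine synthesis, was 16.4 ± 2.66 CPM in TRAP and 32.0 ± 3.50 CPM in INPUT (SD, n = 4 each), a fall in both fits (log2 fold change -0.98, adjusted p = 0.0010 and 0.0084).

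Tph1 and Tph2 encode the enzymes that begin serotonin synthesis, Tph2 in raphe neurons and Tph1 mainly outside the brain. Tph1 was 3.66 ± 1.49 CPM in TRAP and 1.06 ± 0.481 CPM in INPUT (SD, n = 4 each), higher in both fits (log2 fold change 1.86, adjusted p = 0.0068 and 0.020). Tph2 was 1.41 ± 1.52 CPM in TRAP and 1.55 ± 0.539 CPM in INPUT (SD, n = 4 each), near the filter and called in neither fit (adjusted p = 0.40 and 0.44). The carriers Slc18a2, Slc22a3 and Slc29a4 had log2 fold changes of 0.15, 0.30 and -0.35 and were called in neither fit. Gch1 and the serotonin transporter gene Slc6a4 are not analysed here.

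Downstream of the receptors, lists of transducer genes were counted by class. Shares of calls over all genes were 23.2% higher and 24.8% lower without the block, and 15.4% and 16.8% with it. Of 14 Gi/o coupling genes 3 were higher and 3 lower without the block and 2 and 2 with it, and the median log2 fold change was 0.02. The largest rise among the called genes was that of Kcnj9, which encodes a G protein-gated potassium channel subunit (18.6 ± 1.19 CPM in TRAP and 7.50 ± 2.04 in INPUT, SD, n = 4 each, log2 fold change 1.35, adjusted p = 5.6e-04 and 0.0025 with the block). The largest fall was that of Rgs8, which encodes a protein that shortens Gi/o signals (log2 fold change -0.81, adjusted p = 0.0013 and 0.0099). Calls in this list were thus split evenly. With the trend on exon length taken out in the blocked fit, the Gi/o counts became 2 higher and 3 lower. That fit called 1980 of the 14249 genes tested higher and 2581 lower, which stands beside its counts for this list and those below.

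Of 12 Gq/11 coupling genes with a row, out of 14, 5 were higher and 1 lower without the block and 4 and 0 with it, with a median of 0.47 beside -0.05 over all genes tested. Over all genes 15.4% were called higher and 16.8% lower with the block. With the trend on exon length taken out in the blocked fit, the Gq/11 counts became 4 higher and 1 lower. Plcb4, which encodes a phospholipase C that Gq activates, rose most among the called genes, from 62.2 ± 19.7 CPM in INPUT to 223 ± 8.25 CPM in TRAP (SD, n = 4 each, log2 fold change 1.91, adjusted p = 2.0e-04 and 8.5e-05). The 1 lower gene was Gna11, which encodes a G protein alpha subunit of this class (log2 fold change -0.64, adjusted p = 0.021 and 0.057), which was also called in the blocked fit with the exon length trend taken out (-0.68, adjusted p = 0.030). The alpha subunit gene Gnaq itself was at 486 ± 73.8 CPM in TRAP and 456 ± 76.1 CPM in INPUT (SD, n = 4 each) and called in neither fit (adjusted p = 0.66 and 0.79), and it is named here after its values were seen.

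Of 15 Gs coupling genes 4 were higher and 4 lower without the block and 2 and 1 with it, with a median of 0.27. Beside these stand shares over all genes of 23.2% and 24.8% without the block and 15.4% and 16.8% with it. Rapgef3, which encodes a guanine nucleotide exchange factor opened by cyclic AMP, rose most among the called genes (log2 fold change 1.15, adjusted p = 0.0013 and 0.0054). Adcy5, the main adenylyl cyclase gene of striatal neurons, fell most among them, to 72.8 ± 18.1 CPM in TRAP from 148 ± 22.7 CPM in INPUT (SD, n = 4 each, log2 fold change -1.04, adjusted p = 0.0012 and 0.0039). With the trend on exon length taken out in the blocked fit, the Gs counts became 1 higher and 5 lower. All 14249 genes gave 1980 higher and 2581 lower in that fit.

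Of 14 genes for receptor partners, desensitization and RNA editing 5 were higher and 1 lower without the block. With it 3 and 1 were, and the median was 0.12. The whole table had 23.2% higher and 24.8% lower without the block, and 15.4% and 16.8% with it. Cc2d1a, known as a repressor of Htr1a transcription, rose most among the called genes (28.0 ± 6.35 CPM in TRAP and 12.97 ± 1.33 in INPUT, SD, n = 4 each, log2 fold change 1.09, adjusted p = 8.1e-04 and 0.0041). Dlg4, which encodes the scaffold PSD-95, known to bind Htr2a and Htr2c, fell most (20.99 ± 2.66 and 43.7 ± 5.63 CPM, SD, n = 4 each, log2 fold change -1.06, adjusted p = 4.5e-04 and 0.0035). Mpdz, named after its values were seen, encodes a scaffold known to bind the tail of Htr2c and was higher in both fits (log2 fold change 0.91, adjusted p = 0.0043 and 0.023). With the exon length trend taken out in the blocked fit Mpdz was at 0.32 (adjusted p = 0.33), and the list had 2 genes higher and 2 lower.

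**Figure D4:**
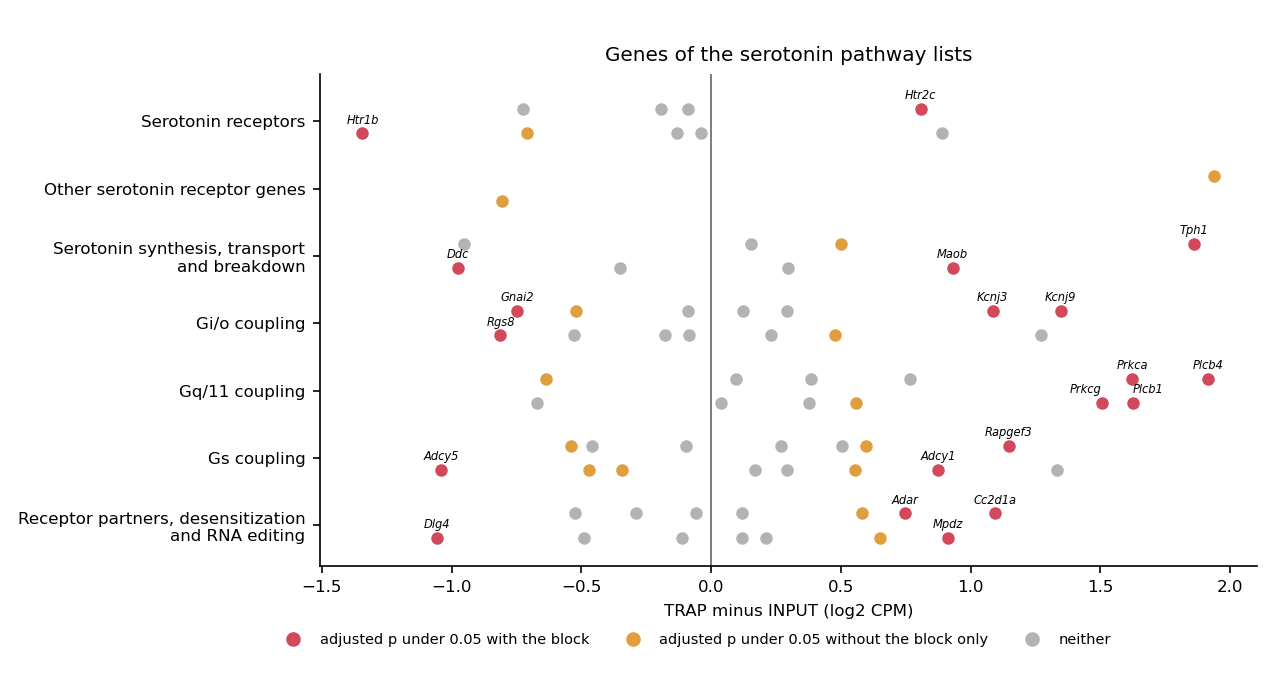
Mean TRAP minus INPUT difference (x axis, log2 CPM) of each tested gene in the serotonin receptor set and in 6 lists of related genes (y axis), coloured by whether limma called it with the pool as a block, without the block only, or in neither fit. Named points are those called with the block. Of the Gq/11 coupling genes 4 of 12 are called with the block and all 4 are higher in TRAP. Calls in the Gi/o list lie on both sides of 0. Over all genes tested 15.4% are called higher and 16.8% lower with the block.

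The genes whose pattern over the 8 libraries was most like that of Htr2c, by Euclidean distance after each gene was centred on its own mean log2 CPM, were Cyfip1 (distance 0.12, log2 fold change 0.85), Ripor2 (0.15, 0.72) and Rab3gap1 (0.15, 0.83). For Htr1b they were Nxn (distance 0.32, log2 fold change -1.35), Gpr146 (0.36, -1.29) and Zfp773 (0.38, -1.17). The nearest genes lay farther from Htr1b than from Htr2c, and all distances rest on the same 8 libraries.

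In VP2.2 and VP2.6 the level of a gene also held a part that both libraries of the pool shared. Whole reads were settled there for most receptor genes. For these the deposited log2 CPM differed from the log2 of reads over library size by -0.50 to 0.28. The amount was the same in TRAP and INPUT of the pool. The search took only shifts up to a limit, and for Htr2a and Htr4 in VP2.2 it found none within that limit. For Htr4 in VP2.2 a looser search gave 122 TRAP and 131 INPUT reads, with a shift beyond the limit. Htr5a in VP2.2 and Htr7 in VP2.6 had more than 1 solution. The shifts of these genes in those pools are not part of the range given. For Htr2c the shift was -0.50 in VP2.2 and 0.28 in VP2.6. Its origin is not given in the sources used here. Within VP2.2 and VP2.6 the differences between fractions are not affected by it, while levels per library and the ranges between pools are. For VP1.6 and VP2.11 it could not be read. Whether the blocked fit, which uses all pools, is free of it is therefore not known.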

How the data were processed

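The authors aligned reads with STAR 2.5.1a to Ensembl release 76 (GRCm38), used featureCounts for counts of unique, unambiguous reads per gene, scaled with TMM factors in edgeR and fitted limma with voom and quality weights. The values they deposited are log2 CPM per gene and library. The deposited table also holds the authors' fold changes with limits, p-values and average levels and 1 transcript count per gene, none of which was used. From its 14398 entries, 45 repeats of a gene were dropped. INPUT VP1.6 and both libraries of VP2.11 are rounded to 3 significant digits.

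The log2 CPM values were fitted with limma 3.58.1 (lmFit, eBayes with a trend) in R 4.3.3, with p-values adjusted by Benjamini-Hochberg over 14249 genes. Each pool gave both fractions from 1 homogenate, so pools pair the libraries. Libraries of 1 pool deviated from their fraction means in opposite directions (correlation across genes -0.75 to -0.49, against 0.05 to 0.44 for different pools), a pattern under which the fit without the block understates the error, so the blocked fit is given beside the other for the receptor genes and the lists. Both fits were tested on simulated data.

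Whole reads were sought in the TRAP minus INPUT differences of genes under 3 log2 CPM and found, to within 2e-08 on the log2 scale, for 97.3% of them in VP2.2 and 99.8% in VP2.6. No count test was run, because reads were found only in differences within those pools. The exact permutation tests compared 4 TRAP with 4 INPUT values (scipy 1.17.1) and did not use the pairing by pool. Gene positions, exon lengths and the Htr2c sequence came from GENCODE release M21 (GRCm38), which matched all 14353 genes by identifier.

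The receptor genes and the lists were chosen with earlier results of these data known. All 9 receptor genes and all genes of serotonin synthesis, transport and breakdown are named, and of each other list the called genes with the largest rise and the largest fall and any gene a result turns on. Alternatives covered the filter on low values, library weights, scaling, the variance prior, exon length, the threshold and leaving out each pool. 1 gene of the marker lists is not reported here.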

Additional observations from a re-analysis of the deposited data

Results flagged for a closer look

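Of the 9 receptor genes in 2 fractions, 18 groups of 4 libraries were examined for a single library far from the other 3, where chance gives about 0.9, and 1 was found. Htr1f in the TRAP library of VP2.6 was at 1.01 log2 CPM, below the other TRAP libraries at 1.59 to 1.70. Without VP2.6 the log2 difference of Htr1f was 0.040.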

How the results depend on the processing

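Htr2c kept its sign in every fit run and Htr1b did too, with log2 differences of 0.33 to 1.00 and -1.64 to -1.02. The pool as a replicate block lowered the number of genes called from 6830 to 4592 and of receptor genes from 3 to 2. Receptor genes called fell to 1 with the block and the exon length trend taken out, to 1 with a minimum log2 fold change of 1 in either direction, and to 1 with both the block and that minimum, and the minimum left 3528 genes without the block and 3112 with it. With the block and median centring (chosen, like the block with that minimum and the block with quantile normalization, after seeing the data) 4495 genes were called. Leaving out each pool gave 3232 to 6894 genes and 1 to 4 receptor genes. Htr5a was called without the block under array weights (adjusted p = 0.0083, and 0.12 with the block), quantile normalization (log2 difference 1.42, adjusted p = 0.012, and 0.0545 with the block), over 1 CPM in all 8 libraries (adjusted p = 0.043) and no trend in eBayes (adjusted p = 0.047). Htr1d was not called under quantile normalization (adjusted p = 0.061, and 0.20 with the block) and was called with the block and array weights (adjusted p = 0.026). Signs turned for 4 genes called in no fit. Htr2a was 0.23 with array weights, 0.40 with the block and array weights and 0.57 with quantile normalization, and -0.60 to 0.92 with pools left out. Htr1f was 0.14, Htr4 0.25 and Htr7 0.10 with quantile normalization, in both fits, and Htr1f 0.01 with the block and the length trend taken out. With pools left out they ran from -0.30 to 0.040 (Htr1f), -0.67 to 0.29 (Htr4) and -0.46 to 0.11 (Htr7). The cause of these turns was not tested. Depth limits Htr2a, Htr1f, Htr4 and Htr5a most, at under 5 CPM in every library but 1 of Htr4.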
